A study of Homo sapiens with 11 samples.

Results

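The Fanconi anaemia, homologous recombination and excision repair genes were described on 11 Affymetrix arrays of MV4-11, a human cell line of acute myeloid leukaemia with a rearranged KMT2A gene. The list held 33 genes, and each was read from the transcript cluster, a group of probes summarised together, that the platform annotation gives to that gene symbol alone. Of these, 27 had such a cluster, 21 in the Fanconi and homologous recombination class and 6 in the excision repair class. They are 27 of 22109 genes with a cluster of their own and of 12147 genes tested, and all 27 passed the level filter. No member had more than 1 cluster. FANCA, FANCD2, BRCA2 and XRCC2 were not analysed here. The clusters of ERCC5 and ERCC6 are listed together with neighbouring genes, so neither gene is given a value.

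The Fanconi pathway repairs DNA strands that are crosslinked to each other. A core complex of FANC proteins attaches ubiquitin to the FANCI and FANCD2 pair, which licenses nucleases to cut the crosslink out, and homologous recombination then rebuilds the broken strand from the sister chromatid. Many of these genes are transcribed mainly in cycling cells, while nucleotide excision repair, which cuts bulky lesions out of 1 strand, also works in resting cells. Alkylating agents make lesions that both systems handle.

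The 8 knockdown arrays held cells transduced with shRNAs and then kept with 3 µM doxycycline for 24 hours. They were shLuc (a luciferase shRNA and the control), shRUNX1, shRUNX2, shRUNX3, the 3 pairs and the triple combination, so that each RUNX shRNA was present on 4 arrays and absent from 4. RUNX1, RUNX2 and RUNX3 encode related DNA-binding transcription factors. For the 3 compound arrays the cells spent 6 hours in DMSO or in 1 µM of Chb-M' or Chb-50, which the series' design text names as alkylating PIP conjugates. Each condition had 1 array. Nothing in the labels says that arrays came from separate transductions. The p-values therefore rest on the spread that the fitted terms leave between arrays of different conditions. That spread can hold technical variation and any combined effect of shRNAs that the fit has no term for. The precision is limited by the small number of arrays.

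Over the genes tested, the median of an array was 5.86 to 5.91 on the deposited log2 scale. RUNX2 had a mean of 5.70 ± 0.107 (SD, n = 4) on arrays with its shRNA and of 6.14 ± 0.123 (SD, n = 4) on the others, and the ranges did not overlap. RUNX3 had a mean of 7.74 ± 0.105 (SD, n = 4) where its shRNA was present and of 8.11 ± 0.291 (SD, n = 4) elsewhere, but it also read 7.70 on shRUNX1, inside the range of the RUNX3 shRNA arrays. RUNX1 shares a cluster with LOC100506403, which read 3.96 to 4.26 with and 4.20 to 4.45 without the RUNX1 shRNA, so the ranges overlapped and the check of the RUNX1 label is weak. All 6 measured genes of the myeloid leukaemia list passed the level filter of 3.80, from ITGAM at 3.84 to 4.49 up to FLT3 at 9.33 to 9.87. All 4 T cell markers (CD3D, CD3E, CD3G and CD2) stayed below it, as did the B cell gene MS4A1. The B cell genes CD79A (4.11 to 4.92) and CD79B (3.85 to 4.12) passed. Of the 6 monocyte and macrophage genes CD14 stayed below and 5 passed. These were CD68 (9.29 to 10.33), CSF1R (7.41 to 8.07), S100A8 (5.46 to 6.37), S100A9 (4.69 to 5.59) and ITGAX (3.23 to 5.44). The erythroid gene KLF1 (3.19 to 4.18) passed by its highest level, while HBB and ALAS2 stayed below. CD33 and HOXA9 were not analysed here.

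The Fanconi and recombination genes read lower on the arrays with the RUNX1 shRNA, and lowest on the 2 arrays that carried the RUNX1 and RUNX3 shRNAs together. The excision repair genes did not share that pattern. On shRUNX1+shRUNX3 the 21 Fanconi and recombination genes averaged 0.71 log2 units below shLuc, while the 6 excision repair genes averaged 0.04 above it. On shRUNX1+shRUNX2+shRUNX3 the 2 means were -0.63 and -0.00. The mean level of the 21 genes was 6.90 on shLuc, 6.74 on shRUNX1 and 6.62 on shRUNX1+shRUNX2. It was 6.19 on shRUNX1+shRUNX3 and 6.28 on the triple array. DMSO, without a RUNX shRNA, averaged 6.65, between shRUNX1 and shRUNX1+shRUNX2, though its time and treatment differed. Fewer cycling cells and less RNA per cell cannot be told apart in these bulk samples.

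**Figure D1:**
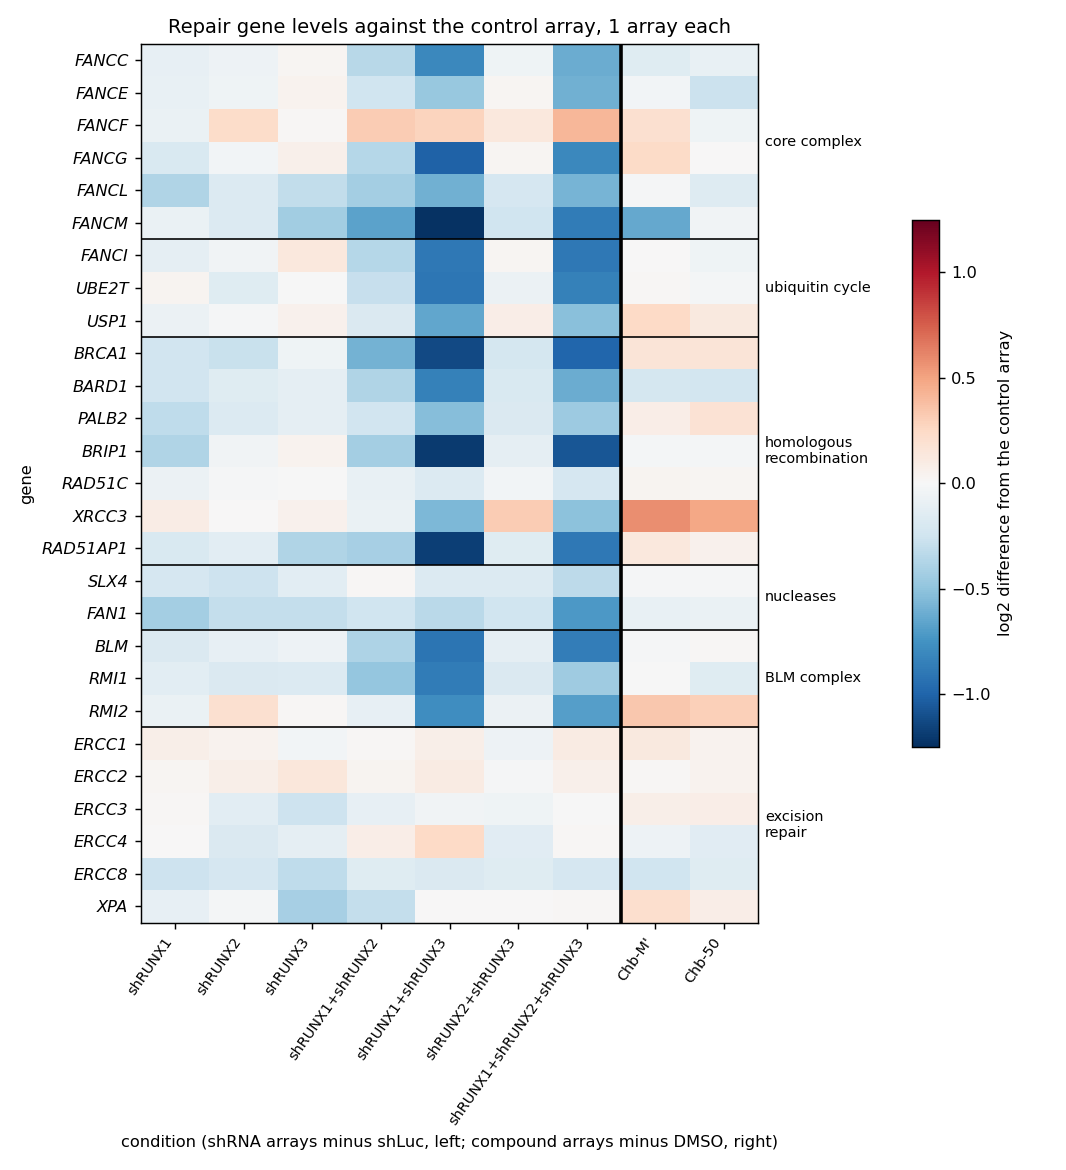
Colours give the log2 difference of each gene from shLuc (7 knockdown arrays, left of the heavy line) or from DMSO (2 compound arrays, right of it), 1 array per column, with genes ordered by role. The columns shRUNX1+shRUNX3 and shRUNX1+shRUNX2+shRUNX3 are blue for 20 of the 21 Fanconi and recombination genes, FANCF being the exception, and pale for the 6 excision repair genes.

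Promoter windows of 4 members are shown as examples of windows that held a match to the short words given below. Windows of RMI1, UBE2T, USP1 and ERCC1 held such matches as well and are not shown. The windows are those of RefSeq on GRCh38.p14, from 250 bases before to 50 after each gene's start, and 25 of the 27 members matched. Both strands were searched for the RUNX words TGTGGT and TGCGGT, for the E2F words TTTGGCGC, TTTCCCGC, TTTCGCGC and TTTGCCGC, and for the CHR words TTTGAA and TTCGAA of the cell cycle homology region. These 3 sets of words share no full word. Capitals mark any such match in the 250 bases before the start, 5′ to 3′ on the gene's strand. The BRIP1 sequence lies at chr17:61863529-61863778 (minus strand), FANCG at chr9:35079943-35080192 (minus strand), the second FANCC start at chr9:95317710-95317959 (minus strand) and FANCM at chr14:45135680-45135929 (plus strand).
BRIP1: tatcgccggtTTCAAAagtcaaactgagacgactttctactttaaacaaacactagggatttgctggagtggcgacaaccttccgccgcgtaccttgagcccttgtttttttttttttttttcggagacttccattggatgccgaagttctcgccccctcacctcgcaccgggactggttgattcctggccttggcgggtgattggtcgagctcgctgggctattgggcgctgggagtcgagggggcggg
FANCG: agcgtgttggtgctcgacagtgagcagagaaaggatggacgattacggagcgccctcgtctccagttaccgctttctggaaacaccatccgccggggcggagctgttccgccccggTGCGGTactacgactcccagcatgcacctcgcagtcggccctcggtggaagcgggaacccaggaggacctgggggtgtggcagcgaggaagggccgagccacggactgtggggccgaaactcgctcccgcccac
FANCC: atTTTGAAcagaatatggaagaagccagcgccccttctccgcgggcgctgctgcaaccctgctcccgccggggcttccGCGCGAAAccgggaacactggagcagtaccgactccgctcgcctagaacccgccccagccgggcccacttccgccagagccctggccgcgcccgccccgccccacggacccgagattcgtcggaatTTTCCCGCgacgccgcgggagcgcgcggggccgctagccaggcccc
FANCM: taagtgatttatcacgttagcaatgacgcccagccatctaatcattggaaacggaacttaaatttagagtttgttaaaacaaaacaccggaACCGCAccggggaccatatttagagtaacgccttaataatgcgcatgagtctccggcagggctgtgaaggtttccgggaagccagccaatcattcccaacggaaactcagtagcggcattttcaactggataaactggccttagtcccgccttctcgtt
The capitals in BRIP1 are a CHR word on the opposite strand, and a RUNX word, TGTGGT, lies 23 bases after its start, outside the stretch shown. FANCG and FANCM each hold 1 RUNX word, on the gene's strand in FANCG and on the opposite strand in FANCM. The FANCC stretch holds a CHR word and 2 E2F words, and its other window, at chr9:95317205-95317504, holds a RUNX word.

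Among the 25 windows of Fanconi and recombination members, RUNX words were found in 4 (16%), against 19.6% of all 35116 windows. CHR words were found in 4 (16%), those of BRIP1, FANCC, UBE2T and USP1, against 16.4% of all windows. E2F words were found in 2 (8%), those of FANCC and RMI1, against 3.31%. Of the 8 excision repair windows, ERCC1 held 1 with a RUNX word and another with a CHR word, and none held an E2F word. A match is a description of these letters and not a site.

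The RUNX1 shRNA was first examined over all 8 knockdown arrays, with the presence of each of the 3 shRNAs as an additive term in limma. No gene passed a Benjamini-Hochberg adjusted p of 0.05 (0% of the 12147 tested), and so no member did. At an unadjusted p under 0.05, 16 of the 21 Fanconi and recombination genes were lower, against 10.0% of all genes tested, and 0 of the 6 excision repair genes were. The median estimate was -0.40 over the 21 genes, 0.05 over the 6 and 0.01 over all genes tested. Estimates were below 0 for 20 of the 21, FANCF being the exception.

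BRIP1, FANCG and BRCA1 had the lowest estimates. BRIP1, the helicase that binds BRCA1 and is also a Fanconi gene, read 7.85 on shLuc, 7.81 on shRUNX2, 7.90 on shRUNX3 and 7.74 on shRUNX2+shRUNX3. With the RUNX1 shRNA it read 7.48 alone, 7.43 with shRUNX2, 6.66 with shRUNX3 and 6.78 on the triple array. All 4 arrays with the RUNX1 shRNA lay below all 4 without it, and the 2 with the RUNX3 shRNA as well lay lowest. The limma estimate was -0.74 (SE 0.15, adjusted p = 0.093).

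FANCG, an adaptor of the core complex, read 6.58, 6.55, 6.64 and 6.61 on the arrays without the RUNX1 shRNA (shLuc, shRUNX2, shRUNX3 and shRUNX2+shRUNX3). The shRUNX1 level was 6.39, that of shRUNX1+shRUNX2 6.22, that of shRUNX1+shRUNX3 5.57 and that of the triple array 5.77. The 4 arrays with the RUNX1 shRNA again lay below the other 4, with an estimate of -0.60 (SE 0.15, limma adjusted p = 0.104).

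BRCA1, a ubiquitin ligase that steers breaks into recombination, read 7.53, 7.26, 7.49 and 7.31 on the same 4 arrays without the RUNX1 shRNA. With the RUNX1 shRNA alone the level was 7.30, with shRUNX2 as well 6.94, with shRUNX3 as well 6.41, and on the triple array 6.54. The ranges overlapped, because shRUNX1 lay above shRUNX2, and the estimate was -0.60 (SE 0.15, limma adjusted p = 0.105).

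All 4 RUNX1 shRNA arrays lay below all 4 without it for 12 of the 21 Fanconi and recombination genes and for 0 of the 6 excision repair genes, against 4.73% of all genes tested. The 12 were FANCC, FANCE, FANCG, FANCL, FANCI, USP1, BARD1, PALB2, BRIP1, RAD51C, BLM and RMI2. At the other end, FANCF, another adaptor of the core complex, had an estimate of 0.14 (SE 0.08), SLX4, the scaffold that holds crosslink nucleases, -0.04 (SE 0.09), and RAD51C, a recombination gene, -0.12 (SE 0.05). Of the 6 excision repair genes, ERCC4 had the highest estimate in this fit, 0.19 (limma adjusted p = 0.184). It alone of the 6 was higher at an unadjusted p under 0.05, as were 1363 of the 12147 genes tested.

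The count of calls changed with the shRUNX1 array and with the form of the fit. On the shRUNX1 array 0 of 27 members were at least 1.5-fold lower than on shLuc, a share near the 1.23% of all genes tested. Of the 21 Fanconi and recombination genes, 19 lay below shLuc there, as did 6144 of the 12147 genes tested. The medians were -0.13 and -0.003, and FAN1, a crosslink nuclease, was the lowest member at -0.43. Without this array 817 genes passed the adjusted threshold, 455 of them lower (3.75% of the genes tested), among them 12 Fanconi and recombination genes and no excision repair gene. With all arrays kept, the product of the RUNX1 and RUNX3 terms was also added to the fit. The RUNX1 shRNA difference was then averaged over the states with and without the RUNX3 shRNA. For this average, 730 of the 12147 genes tested passed. Of these, 405 were lower and 325 higher. The members that passed were 13 Fanconi and recombination genes, all of them lower.

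Single arrays were also set against shLuc. At 1.5-fold, 0 of 27 members were lower on shRUNX2 (0.675% of all genes tested), on shRUNX3 (0.856%) and on shRUNX2+shRUNX3 (0.766%). On shRUNX1+shRUNX2, BRCA1 and FANCM were lower at this size (1.60% of all genes tested). On shRUNX1+shRUNX3, 14 of the 21 Fanconi and recombination genes and 0 of the 6 excision repair genes were lower (4.96%), and 5 of the 14 were at least 2-fold lower (1.49% of all genes tested). On the triple array 14 of 21 and 0 of 6 were lower (4.27%), 1 of them by 2-fold (0.873%). These differences share the shLuc array and have no replicate check.

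**Figure D2:**
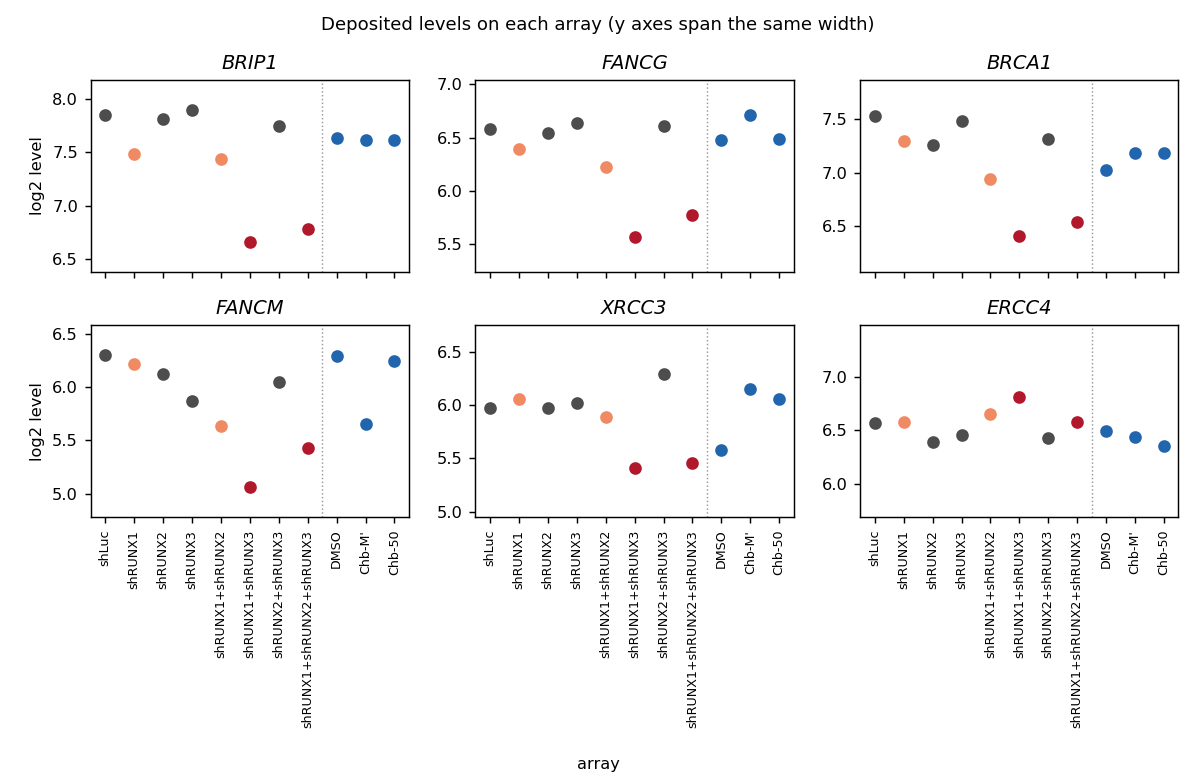
Points are the deposited log2 levels of 6 members on each of the 11 arrays, with red for the 2 arrays that carry both the RUNX1 and RUNX3 shRNAs, orange for the other RUNX1 shRNA arrays, grey for the other knockdown arrays and blue for DMSO and the compounds. The red points lie lowest of the 8 knockdown arrays in every panel but ERCC4, and FANCM on Chb-M' lies apart from its DMSO and Chb-50 points.

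The RUNX1 shRNA difference was then taken from a fit with a RUNX1 by RUNX3 product term, separately among the 4 arrays that carry the RUNX3 shRNA and the 4 that do not. Among those that carry it, 13 of the 21 Fanconi and recombination genes fell at an adjusted p under 0.05, against 4.95% of all genes tested (601 genes). No member rose, against 3.90% of all genes tested (474 genes), and 0 of the 6 excision repair genes passed in either direction. The median was -0.70 over the 21 genes, 0.14 over the 6 and 0.02 over all genes tested. This contrast was added after the data were seen.

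In the core complex, FANCG fell by 0.95 on the log2 scale (SE 0.10, limma adjusted p = 0.013). FANCC, which binds FANCE and FANCF within the complex, fell by 0.70 (SE 0.11, adjusted p = 0.021), and FANCE, which contacts FANCD2, fell by 0.57 (SE 0.07, adjusted p = 0.015). FANCE read 5.17 on shRUNX1+shRUNX3 and 5.05 on the triple array, against 5.39 to 5.69 on the other knockdown arrays. It also read 5.19 on DMSO, 5.16 on Chb-M' and 4.92 on Chb-50, arrays without a RUNX shRNA. FANCM, the translocase that anchors the complex on DNA, had an estimate of -0.71 with a wide error (SE 0.22, adjusted p = 0.099). FANCL, the ubiquitin ligase of the complex, had -0.34 (SE 0.09, adjusted p = 0.070), and FANCF alone of the class was above 0, at 0.28 (SE 0.09, adjusted p = 0.125).

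FANCM read 6.30 on shLuc, 6.21 on shRUNX1, 6.12 on shRUNX2 and 5.86 on shRUNX3. It read 5.63 on shRUNX1+shRUNX2, 5.06 on shRUNX1+shRUNX3, 6.05 on shRUNX2+shRUNX3 and 5.43 on the triple array. The 2 joint arrays were lowest, but shRUNX3 and shRUNX1+shRUNX2 also lay below the other knockdown arrays. FANCF read 5.16, 5.07, 5.39 and 5.17 on shLuc and the 3 single knockdowns. It read 5.48, 5.43, 5.29 and 5.57 on shRUNX1+shRUNX2, shRUNX1+shRUNX3, shRUNX2+shRUNX3 and the triple array, so its highest value was on the triple array.

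All 3 measured genes of the ubiquitin step fell. FANCI, the partner of FANCD2, fell by 0.97 (SE 0.09, limma adjusted p = 0.011). UBE2T, the ubiquitin-conjugating enzyme of the pathway, fell by 0.83 (SE 0.10, adjusted p = 0.015), and USP1, which removes the ubiquitin again, fell by 0.65 (SE 0.08, adjusted p = 0.015). FANCI read 7.40 on shRUNX1+shRUNX3 and 7.39 on the triple array, against 7.93 to 8.42 on the other 6 knockdown arrays, with no overlap.

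Of the 7 measured recombination genes, 5 fell. BRIP1 fell by 1.10 (SE 0.09, limma adjusted p = 0.011) and BRCA1 by 0.92 (SE 0.13, adjusted p = 0.017). RAD51AP1, which acts in strand invasion, fell by 0.77 (SE 0.14, adjusted p = 0.031), XRCC3, which acts in break repair, by 0.73 (SE 0.11, adjusted p = 0.021), and BARD1, the partner of BRCA1 in its ligase, by 0.58 (SE 0.11, adjusted p = 0.032). PALB2, which links BRCA1 to BRCA2, had -0.35 (SE 0.09, adjusted p = 0.068), and RAD51C had -0.17 (SE 0.07, adjusted p = 0.176).

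XRCC3 read 5.97, 6.06, 5.98 and 6.02 on shLuc and the 3 single knockdowns. It read 5.88 on shRUNX1+shRUNX2, 5.41 on shRUNX1+shRUNX3, 6.29 on shRUNX2+shRUNX3 and 5.45 on the triple array. Only the 2 joint arrays stood low, and shRUNX1 alone was no lower than shLuc.

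In the complex that dissolves crossed strands, BLM, the helicase mutated in Bloom syndrome, fell by 0.80 (SE 0.09, limma adjusted p = 0.013). RMI2, another subunit, fell by 0.70 (SE 0.09, adjusted p = 0.015), and RMI1 had -0.49 with a larger error (SE 0.18, adjusted p = 0.145). RMI2 read 5.21 on shRUNX1+shRUNX3 and 5.30 on the triple array, against 5.88 to 6.18 on the other knockdown arrays and 5.35 on DMSO. The crosslink nuclease genes did not pass the test, with -0.25 (SE 0.15, adjusted p = 0.330) for FAN1 and -0.10 (SE 0.12, adjusted p = 0.656) for SLX4.

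The 6 excision repair genes had estimates between 0.02 and 0.25 in the same contrast. ERCC4, which forms with ERCC1 the nuclease that cuts beside a lesion and also acts on crosslinks, had the highest, 0.25 (SE 0.10, limma adjusted p = 0.162). It read 6.57, 6.58, 6.39 and 6.46 on shLuc and the 3 single knockdowns, and 6.65, 6.82, 6.43 and 6.58 on shRUNX1+shRUNX2, shRUNX1+shRUNX3, shRUNX2+shRUNX3 and the triple array. Its highest value was on shRUNX1+shRUNX3, where BRIP1, FANCG, BRCA1 and FANCM were lowest. The helicases of the TFIIH complex, ERCC2 (0.02, SE 0.08) and ERCC3 (0.13, SE 0.10), and ERCC1 (0.14, SE 0.07) did not pass either. XPA, which verifies the lesion, had 0.22 (SE 0.14).

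ERCC8, part of the ligase that acts when RNA polymerase stalls at a lesion, had the lowest excision repair estimate over all 8 arrays, -0.03 (SE 0.08, limma adjusted p = 0.852). It read 6.07 on shLuc, 5.81 on shRUNX1, 5.86 on shRUNX2 and 5.76 on shRUNX3. It read 5.92, 5.89, 5.92 and 5.86 on shRUNX1+shRUNX2, shRUNX1+shRUNX3, shRUNX2+shRUNX3 and the triple array. All 7 knockdowns lay below the single shLuc reading they share, with no further drop where more shRNAs were combined. The DMSO array, without a RUNX shRNA, read 5.91, within the range of the 7 knockdowns (5.76 to 5.92).

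**Figure D3:**
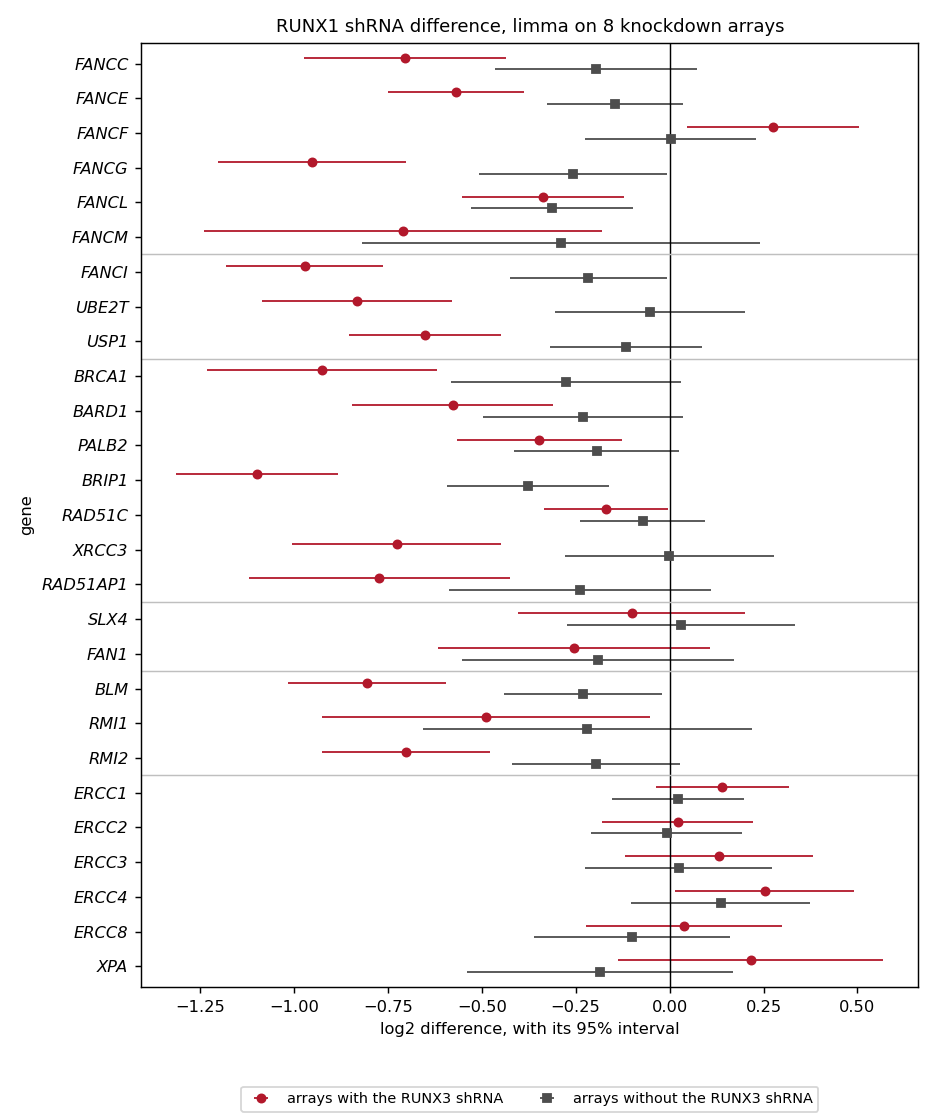
Points are limma estimates of the RUNX1 shRNA difference in log2 units with their 95% intervals, in red among the 4 arrays with the RUNX3 shRNA and in grey among the 4 without it, from 1 fit on 8 knockdown arrays. Red intervals lie wholly below 0 for 18 of the 21 Fanconi and recombination genes, and the red points of the 6 excision repair genes, at the bottom, lie above 0.

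Among the 4 arrays without the RUNX3 shRNA, no gene passed the adjusted threshold (0% of the genes tested). At an unadjusted p under 0.05, 5 of the 21 Fanconi and recombination genes were lower, against 3.38% of all genes tested, with BRIP1 lowest at -0.38 (SE 0.09, limma adjusted p = 0.552). The difference between the 2 contrasts was tested by the product term, which no gene passed either (0%). At an unadjusted p under 0.05 the term was below 0 for 12 of the 21 Fanconi and recombination genes, against 6.61% of all genes tested, and the lowest were UBE2T at -0.78 (SE 0.15), FANCI at -0.76 (SE 0.12) and XRCC3 at -0.73 (SE 0.16). The adjusted p was 0.249 for UBE2T and FANCI and 0.252 for XRCC3, so a larger RUNX1 shRNA difference in the presence of the RUNX3 shRNA was not established by this test.

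The 13 calls were lost when 1 of 3 arrays was left out. None passed, nor did any of the 12147 genes, without shRUNX3, shRUNX1+shRUNX3 or shRUNX2+shRUNX3. The estimates stayed large: that of BRIP1 was -1.02, -0.995 and -1.18 without these arrays, and that of FANCI -0.97, -0.91 and -0.98. Of the 13 genes, 9 passed without the triple array. Leaving out any of these 4 arrays leaves 1 array in its arm, which the fit assumes to vary like the others. Without shLuc or without shRUNX2, 9 of the 13 passed.

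The 2 joint arrays lay below all other 6 knockdown arrays for 17 of the 21 Fanconi and recombination genes and 0 of the 6 excision repair genes, against 13.3% of all genes tested. The exceptions were FANCF, SLX4, FAN1 and RMI1. Above the other 6, the 2 joint arrays placed XPA alone of the 27 members, against 15.3% of all genes tested. XPA read 5.20 and 5.21 there, while shRUNX2+shRUNX3 read 5.20, so the margin was small.

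Other repair genes and cell cycle references were read beside the members in the contrast with the RUNX3 shRNA. Over all genes tested, 4.95% were lower and 3.90% higher there at an adjusted p under 0.05 in limma. All 16 S phase reference genes fell, with a median of -0.99, and 13 of 14 G2 and mitosis genes fell, with a median of -0.90. Of 29 other Fanconi and recombination genes, 8 fell and none rose, with a median of -0.15. The lowest was EXO1, the nuclease that resects breaks, which fell by 1.35 (SE 0.17, limma adjusted p = 0.015), and RAD54L, a DNA motor of recombination, fell by 0.82 (SE 0.13, adjusted p = 0.020). The other 6 were BABAM1, CENPX, DNA2, EME1, GEN1 and POLQ.

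Of 17 other nucleotide excision repair genes, 0 passed in limma, with 1 lower and 2 higher at an unadjusted p under 0.05 (12.7% and 14.5% of all genes tested) and a median of 0.00. DDB2, which finds ultraviolet lesions in chromatin, had the lowest estimate, -0.51 (SE 0.13, limma adjusted p = 0.066), and XPC, the damage sensor of the pathway, the highest, 0.36 (SE 0.08, adjusted p = 0.053). Of 17 base excision repair genes, UNG and PARP2 fell, against 4.95% of all genes tested. UNG, which removes uracil from DNA, fell by 1.09 (SE 0.09, limma adjusted p = 0.011), and PARP2, which responds to strand breaks, by 0.64 (SE 0.08, adjusted p = 0.015), while the median of the list was -0.01. The part of the S phase and mitosis genes in the Fanconi and recombination difference was not tested.

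**Figure D4:**
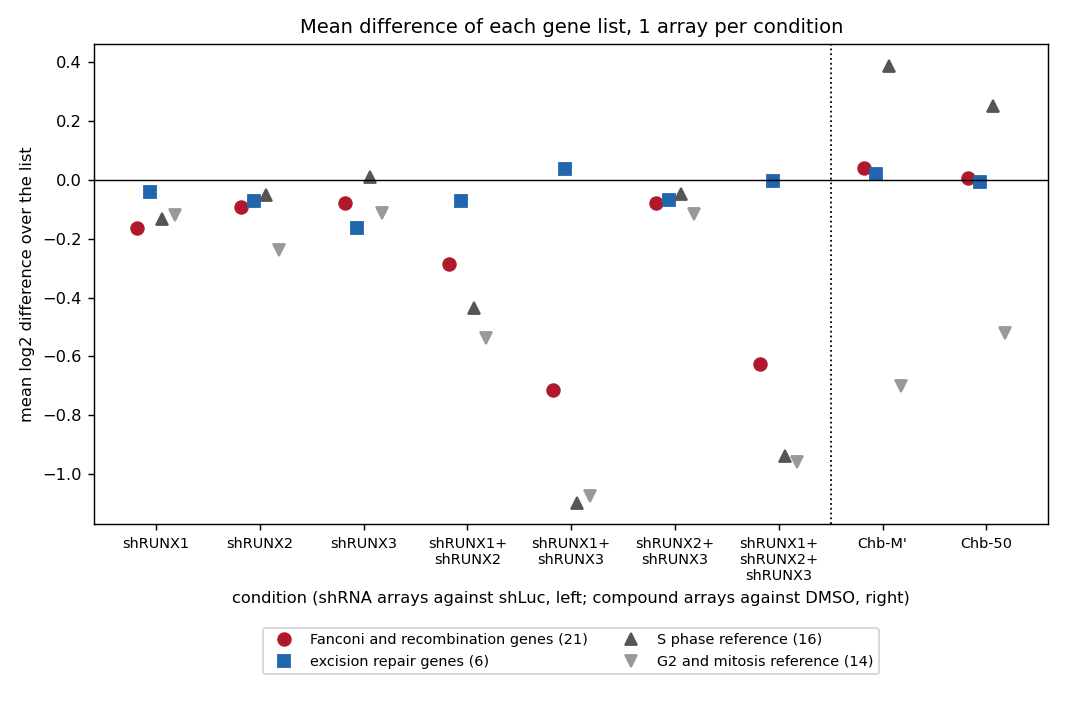
Points are the mean log2 difference over each gene list from shLuc (7 knockdown arrays) or from DMSO (2 compound arrays), 1 array per condition, with list sizes in the key. On shRUNX1+shRUNX3 the Fanconi and recombination mean was -0.71 and the S phase mean -1.10, and on Chb-M' they were 0.04 and 0.39 while the G2 and mitosis mean was -0.70.

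The RUNX3 shRNA and the RUNX2 shRNA were read from the same additive fit. No gene passed the adjusted threshold for either (0% of the genes tested in both). For the RUNX3 shRNA, 7 of the 21 Fanconi and recombination genes were lower at an unadjusted p under 0.05, against 4.82% of all genes tested, and 0 of the 6 excision repair genes were. The median was -0.23 over the 21 genes, -0.00 over the 6 and 0.01 over all genes tested. FANCM at -0.47 (SE 0.16), RAD51AP1 at -0.46 (SE 0.14) and RMI2 at -0.38 (SE 0.11) were lowest, with limma adjusted p-values of 0.497, 0.430 and 0.431. The highest were FANCF at 0.09 (SE 0.08), RAD51C at -0.06 (SE 0.05) and SLX4 at -0.09 (SE 0.09).

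On the arrays with the RUNX3 shRNA but not the RUNX1 shRNA, the 21 genes averaged -0.08 against shLuc, both on shRUNX3 and on shRUNX2+shRUNX3. The 6 excision repair genes averaged -0.16 on shRUNX3, with 5 of 6 below 0, and -0.07 on shRUNX2+shRUNX3. Single members lay lower on shRUNX3, FANCM at -0.43, XPA at -0.41 and RAD51AP1 at -0.37, and the same genes read -0.25, 0.00 and -0.15 on shRUNX2+shRUNX3. For 0 of the 27 members did all 4 RUNX3 shRNA arrays lie below all 4 without it, against 1.58% of all genes tested. Among the excision repair genes the estimates ran from -0.06 for ERCC8 to 0.05 for ERCC2, with standard errors of 0.08 and 0.06.

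For the RUNX2 shRNA, 0 of 27 members were lower at an unadjusted p under 0.05, against 1.84% of all genes tested. FANCF alone was higher at that size of p, against 3.05% of all genes tested, a share near the background, with an estimate of 0.22 (SE 0.08, limma adjusted p = 0.965). The lowest Fanconi and recombination estimates were those of BRCA1 at -0.17 (SE 0.15), UBE2T at -0.12 (SE 0.16) and FAN1 at -0.12 (SE 0.10). RMI2 (0.05, SE 0.11) and RAD51AP1 (0.04, SE 0.14) followed FANCF at the top. The excision repair estimates lay between -0.09 for ERCC4 and 0.05 for XPA. The medians were -0.03 over the 21 genes, -0.00 over the 6 and 0.00 over all genes tested.

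The compounds were compared with DMSO at the matched dose of 1 µM and time of 6 hours, and both comparisons share the DMSO array. Most members differed little from DMSO on either array. With Chb-M' the median log2 difference was 0.00 over the 21 Fanconi and recombination genes, 0.04 over the 6 excision repair genes and 0.02 over all genes tested. With Chb-50 the 3 medians were -0.02, 0.05 and 0.00. At 1.5-fold, FANCM alone of the 27 members was lower with Chb-M', against 3.21% of all genes tested, and none was higher, against 2.25%. With Chb-50 none was lower (1.98% of all genes tested) or higher (1.39%).

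FANCM read 6.29 on DMSO, 5.65 on Chb-M' and 6.24 on Chb-50. The Chb-M' array stood alone, 0.64 log2 units below DMSO, and its level was near that of shRUNX1+shRUNX2 (5.63). In limma with the spread pooled from the knockdown arrays, the difference was -0.64 (SE 0.33, 95% interval -1.41 to 0.13, adjusted p = 0.449), and with Chb-50 it was -0.05 (SE 0.33, adjusted p = 1).

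XRCC3 read 5.57 on DMSO, 6.15 on Chb-M' and 6.05 on Chb-50. Both compound arrays were above DMSO, by 0.58 and 0.48 (SE 0.31 for each), with limma adjusted p-values of 0.472 and 0.745. The Chb-M' difference lay just under the 1.5-fold size of 0.585. The DMSO reading was below those of the 6 knockdown arrays that lack the joint shRNAs, which spanned 5.88 to 6.29.

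RMI2 read 5.35 on DMSO, 5.69 on Chb-M' and 5.65 on Chb-50, which gave 0.34 and 0.30 (SE 0.23 for each, limma adjusted p-values 0.579 and 0.802). BARD1 read 6.91, 6.68 and 6.68 on the same arrays, a difference of -0.22 and -0.23 (SE 0.20). FANCC differed by -0.15 with Chb-M' (SE 0.24) and USP1 by 0.25 (SE 0.23), and with Chb-50 the other extremes were FANCE at -0.27 (SE 0.19), FANCL at -0.16 (SE 0.12) and PALB2 at 0.18 (SE 0.14). BRIP1 and BRCA1, lowest on the joint knockdown arrays, differed from DMSO by -0.02 and 0.16 with either compound, as the deposited values of the 2 compound arrays were equal for both genes.

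Among the excision repair genes, ERCC8 was lowest and XPA highest with both compounds. ERCC8 read 5.91 on DMSO, 5.67 on Chb-M' and 5.76 on Chb-50, with differences of -0.25 and -0.15 (SE 0.16 for each, limma adjusted p-values 0.549 and 0.875). XPA read 5.17, 5.39 and 5.26, with differences of 0.21 and 0.08 (SE 0.24 for each). ERCC1, ERCC2, ERCC3 and ERCC4 lay between -0.14 and 0.12 with either compound.

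**Figure D5:**
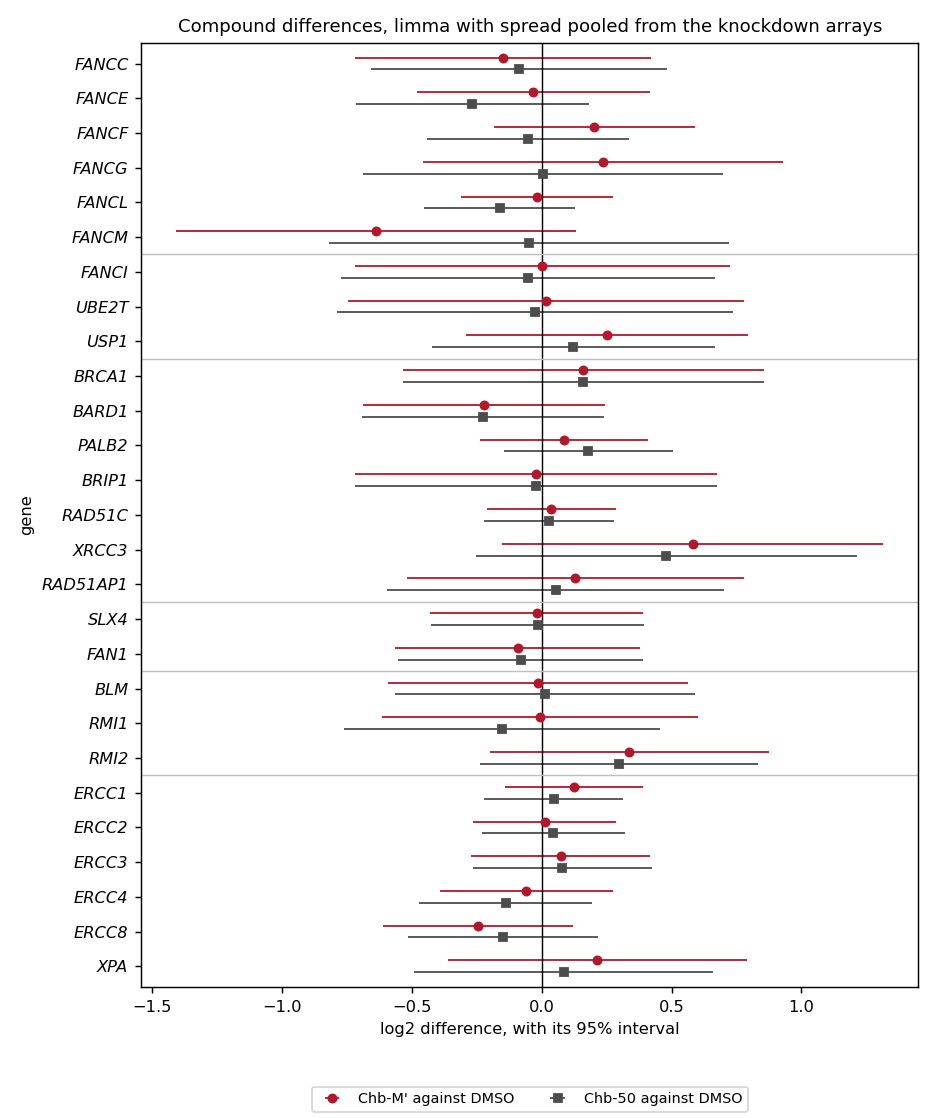
Points are log2 differences from DMSO with 95% intervals, in red for Chb-M' and in grey for Chb-50, from limma with the spread pooled from the knockdown arrays, 1 array per compound. Every interval crosses 0, and FANCM shows the widest gap between the 2 compounds.

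The pooled-spread fit called 74 genes with Chb-M' (0.609% of those tested), 0 with Chb-50 (0%) and 0 between the compounds (0%), and 0 of 27 members in each. At an unadjusted p under 0.05, 0 members were lower or higher in any of the 3 comparisons. Over all genes tested, 922 (7.59%) were lower and 766 (6.31%) higher with Chb-M', 636 (5.24%) lower and 478 (3.94%) higher with Chb-50, and 405 (3.33%) lower and 464 (3.82%) higher between the compounds. Only Chb-M' and Chb-50 could be compared directly, as 1 pair. FANCM alone was at least 1.5-fold lower with Chb-M' than with Chb-50 (1.08% of all genes tested), and no member was higher by that size (1.23%). The FANCM difference was -0.59 (SE 0.33, 95% interval -1.36 to 0.18, limma adjusted p = 0.791 over all genes tested). FANCF at 0.25 (95% interval -0.13 to 0.64), FANCE at 0.23 (-0.21 to 0.68) and FANCG at 0.23 (-0.46 to 0.92) were the highest, and PALB2 at -0.10 (-0.42 to 0.23) and FANCC at -0.06 (-0.63 to 0.51) the lowest after FANCM. Among the excision repair genes the difference ran from -0.10 for ERCC8 (-0.46 to 0.27) to 0.13 for XPA (-0.45 to 0.71). These intervals leave room for differences of either sign.

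The cell cycle references were read on the compound arrays as well. With Chb-M' the S phase reference genes had a median of 0.37 (15 of 16 above 0) and the G2 and mitosis genes a median of -0.59 (14 of 14 below 0). With Chb-50 the medians were 0.22 and -0.46. No gene of either reference list passed the adjusted threshold in these fits.

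Other repair genes were read beside the members. With Chb-M', the XPC array value was 0.92 above DMSO (SE 0.13, limma adjusted p = 0.043). That p takes its spread from the knockdown arrays, since neither Chb-M' nor DMSO has a replicate, and XPC alone of the 17 other nucleotide excision repair genes passed. Over all genes tested, however, 0 passed without shLuc, shRUNX2, shRUNX3, shRUNX1+shRUNX2, shRUNX2+shRUNX3 or the triple array in the fit, 5 without shRUNX1+shRUNX3 and 77 without shRUNX1. MNAT1, a subunit of the kinase in TFIIH, had -0.85 (SE 0.18, adjusted p = 0.102), DDB2 0.66 (SE 0.24, adjusted p = 0.286) and PARP2 0.71 (SE 0.22, adjusted p = 0.216). With Chb-50 the values were 0.55 for XPC, -0.65 for MNAT1 and 0.59 for DDB2. The 29 other Fanconi and recombination genes had a median of 0.06 with Chb-M', and the 17 base excision repair genes a median of 0.19.

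Differences on the compound arrays moved with the length of the gene. Over protein-coding genes tested, the median Chb-M' difference was 0.09 for genes spanning under 20 kb (4291 genes) and -0.24 for genes of 100 kb or more (1612 genes), and with Chb-50 it was 0.05 and -0.15. The 7 members under 20 kb, FANCE, FANCF, FANCG, RMI2, UBE2T, USP1 and XRCC3, had a Chb-M' median of 0.23. With Chb-50 their median was 0.00. The 11 members of 20 to 50 kb had a Chb-M' median of 0.038, against 0.044 for the 2946 genes of that span. ERCC1, ERCC2, ERCC3, ERCC4 and XPA were among these 11. With Chb-50 the medians of members and genes of that span were 0.044 and 0.013. The 6 members of 50 to 100 kb, BARD1, BLM, ERCC8, FANCI, FANCL and FANCM, had a Chb-M' median of -0.12. That of the 1732 genes of that span was -0.05. The 3 members of 100 kb or more, BRCA1, BRIP1 and FANCC, had -0.02 with either compound, nearer 0 than the genes of that span. The 2 classes had like median spans, 38.1 kb for the Fanconi and recombination genes and 39.9 kb for excision repair, against 27.6 kb for protein-coding genes tested. The part of gene length in the values of single members was not tested.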

How the data were processed

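RNA of MV4-11 cells was labelled from 100 ng and hybridised to 11 arrays, per the labels' protocols. The deposited log2 values, 1 per transcript cluster, lay between 0.48 and 12.7. Per the submitters' processing notes the authors used RMA, Transcriptome Analysis Console 1.0 and Affymetrix Expression Console 1.3.1, whose roles are not stated. No genome build was given for these values. RMA sets all arrays to a common distribution, so a change shared by all genes would not show.

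Of 53617 clusters, 23558 had 1 gene symbol, for 22109 genes, 2155 had several and 27904 had none listed. The cluster with the highest mean was taken per gene. Genes whose highest level reached the median of 1-symbol values, 3.80, were tested (12147 genes). Symbols were updated through RefSeq for 3 clusters.

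limma 3.58.1 in R 4.3.3 was fitted over all genes tested, with Benjamini-Hochberg adjustment and a threshold of 0.05. The additive fit used the 8 knockdown arrays with 3 shRNA terms (4 residual degrees of freedom, 3.19 prior), and a second fit added the RUNX1 by RUNX3 product (3 residual). The spread therefore comes from arrays of different conditions. In the second fit the RUNX1 shRNA difference was read without the RUNX3 shRNA, with it, and as the average of both. The compound comparisons used all 11 arrays, with the compound arrays assumed to vary like the knockdown arrays. The fit was tested on simulated data with independent noise on each array. Such data cannot check how unreplicated arrays of different conditions vary.

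The members and the gene lists were chosen with earlier results of these data known. The members with the 3 lowest and 3 highest estimates of the Fanconi and recombination class, and the lowest and highest of excision repair, are given per comparison. For the product term and for the arrays without the RUNX3 shRNA, only some of these are given. Levels on every array are given for the members the results turn on. EXO1, RAD54L, UNG, PARP2, XPC, DDB2 and MNAT1 were named from the other lists after their values were seen. The alternatives were other level filters, quantile normalization, the mean of a gene's clusters, a mean-variance trend, each knockdown array left out, other fold sizes, the product term, the 4 RUNX1 shRNA pairs as blocks and the excision class without ERCC1 and ERCC4.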

Additional observations from a re-analysis of the deposited data

Results flagged for a closer look

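XPA was singled out because its RUNX1 shRNA difference had opposite signs in the arrays without and with the RUNX3 shRNA. The RUNX1 shRNA pairs differed by -0.10 (shRUNX1 against shLuc) and -0.27 (shRUNX1+shRUNX2 against shRUNX2) without it, and by 0.42 (shRUNX1+shRUNX3 against shRUNX3) and 0.01 (triple against shRUNX2+shRUNX3) with it. The product term was 0.40 (SE 0.20), and it did not pass in limma (adjusted p = 0.477). Such a pattern of opposite pairs was shown by 1188 of the 12147 genes tested, or 9.78%.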

How the results depend on the processing

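Labels give no replicate numbers that pair arrays, but the 4 pairs of arrays alike but for the RUNX1 shRNA were compared with each RUNX2 and RUNX3 state as a block, an alternative chosen after seeing the data, and 0 genes passed, as in the additive fit. The alternative that adds members below the level filter was not run because every measured member is above it. All other results and alternatives than those given here kept their direction and their side of the threshold or stayed within 1.5 times the count, apart from calls of single genes. For the RUNX1 shRNA with the RUNX3 shRNA, BARD1 and RAD51AP1 lost their call with no level filter. FANCL and PALB2 gained one with the stricter filter and with the trend, and FANCM without shRUNX1 and without shRUNX1+shRUNX2. Without any of the other 6 arrays, 4 or all 13 of the calls were lost. With the additive RUNX1 fit, 59 genes passed with the stricter level filter of 5 and 68 with a mean-variance trend. Leaving out 1 array at a time in that fit gave 0 to 817 genes and 0 to 12 members, the upper values without shRUNX1. With the product term added, 730 genes and 13 members passed for the RUNX1 difference averaged over the RUNX3 states. For the RUNX1 shRNA with the RUNX3 shRNA, 495 genes passed with no level filter and 1702 with the trend, and leaving out 1 array gave 0 to 1262 genes, 0 to 14 members and an excision repair median of 0.051 to 0.20. The RUNX3 count was 0 to 1 genes. The excision repair median of the product term ranged from 0.076 to 0.20. For Chb-M', 7 genes passed with no level filter and 49 with the mean of clusters, and 0 to 77 with 1 array left out. At a smaller size, a log2 difference of 0.32, 3 members differed from DMSO with Chb-M' and 1 with Chb-50. The share of all genes tested at that size was not counted. At 2-fold, 0 members differed with Chb-M', where 68 genes of all tested were lower and 38 higher. Between the compounds 0 members differed by 2-fold, with 9 genes of all tested lower and 15 higher.

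Estimates near 0 changed sign when 1 array was left out, with these ranges. For the RUNX1 shRNA, ERCC8 ranged from -0.087 to 0.041 and SLX4 from -0.12 to 0.020. For the RUNX2 shRNA, RMI2 ranged from -0.057 to 0.14, UBE2T from -0.26 to 0.028, XPA from -0.090 to 0.16 and RAD51AP1 from -0.091 to 0.17. For the RUNX3 shRNA, ERCC8 ranged from -0.10 to 0.013. For the product term, FAN1 ranged from -0.26 to 0.13, FANCL from -0.12 to 0.072 and ERCC2 from -0.054 to 0.11. For the RUNX1 shRNA with the RUNX3 shRNA, ERCC2 ranged from -0.062 to 0.10. Why these values moved was not tested. Signal over background is unknown, so the number of arrays sets the precision.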
